A study of Mus musculus with 17 samples.

Results

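Immediate early genes are switched on within minutes of a stimulus, without new protein synthesis, and most encode transcription factors. Here 9 of them were followed in the mouse diaphragm: Fos, Fosb, Jun, Junb, Egr1, Egr2, Ier2, Atf3 and Nr4a1. They were chosen by name, as the rows with these symbols among the 47643 gene symbols of the expression table, and all 9 were found. Each passed the filter on low values, at least 1 TPM (transcripts scaled by length to a fixed total per sample) in at least 3 mice, together with 13305 genes in all.

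The series measured RNA from the muscle part of the diaphragm of 17 male C57BL/6J mice aged 4 months. Control mice (n = 5) carried no tumor, LLC mice (n = 3) had received Lewis lung carcinoma cells under the skin of the flanks and bore tumors, and each kind also had a group injected with rFibcd1, Control + rFibcd1 (n = 5) and LLC + rFibcd1 (n = 4). rFibcd1 is a recombinant C-terminal piece of the secreted factor Fibcd1, made in insect cells and injected repeatedly into the abdominal cavity in the last week; the other groups received injections of the carrier. The study asked whether rFibcd1 counters muscle wasting in tumor-bearing mice, and the question here is how far the immediate early genes differed with the tumor, with rFibcd1 and between mice of the same group. The tumor line is a single transplanted carcinoma, and the sources used here give neither the time from death to dissection nor a dissection batch.

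Fos and Fosb pair with Jun and Junb to form AP-1, a dimer that binds DNA and acts on genes of growth, stress and inflammation. Egr1 and Egr2 are zinc finger factors, Nr4a1 is an orphan nuclear receptor, Atf3 is a stress-induced factor of the ATF/CREB family, and Ier2 encodes a small nuclear protein. In skeletal muscle this set is known to answer contraction, stretch and injury, and in tissue samples also handling and dissection. Promoters of this class, that of Fos among them, are bound already before a stimulus by SRF, at the CArG box, and by CREB, at an element that holds the letters TGACG.

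In GRCm38, Fos lies at chr12:85473890-85477273, Fosb at chr7:19302696-19310051, Jun at chr4:95049034-95052222, Junb at chr8:84974484-84978718 and Egr2 at chr10:67535475-67542188. Ier2 lies at chr8:84661331-84662852, Atf3 at chr1:191170296-191218039 and Nr4a1 at chr15:101254269-101274795. The upstream windows of 4 of these genes are given here because, as shown further on, Fos moved between mice with both Junb and Nr4a1 (Junb and Nr4a1 with each other did not pass), whereas Jun moved with none of them. Each is the 250 bases before the start site in the RefSeq table for GRCm38.p6, written 5′ to 3′ on the strand of the gene, and none of the 4 windows overlaps an annotated exon. Capitals mark TGACG or its reverse complement CGTCA. The windows are chr12:85473640-85473889 (plus strand) for Fos, chr8:84978749-84978998 (minus strand) for Junb, chr15:101266596-101266845 (plus strand) for Nr4a1 and chr4:95052223-95052472 (minus strand) for Jun.
Fos: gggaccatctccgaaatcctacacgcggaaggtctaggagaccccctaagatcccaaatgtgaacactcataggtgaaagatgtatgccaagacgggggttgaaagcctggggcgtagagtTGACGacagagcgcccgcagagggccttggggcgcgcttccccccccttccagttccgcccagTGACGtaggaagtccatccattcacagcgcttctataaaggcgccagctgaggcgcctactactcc
Junb: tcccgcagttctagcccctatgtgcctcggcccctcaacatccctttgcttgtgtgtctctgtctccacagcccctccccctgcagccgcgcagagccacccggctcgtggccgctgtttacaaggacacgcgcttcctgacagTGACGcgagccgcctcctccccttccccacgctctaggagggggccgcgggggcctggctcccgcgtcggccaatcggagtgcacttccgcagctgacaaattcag
Nr4a1: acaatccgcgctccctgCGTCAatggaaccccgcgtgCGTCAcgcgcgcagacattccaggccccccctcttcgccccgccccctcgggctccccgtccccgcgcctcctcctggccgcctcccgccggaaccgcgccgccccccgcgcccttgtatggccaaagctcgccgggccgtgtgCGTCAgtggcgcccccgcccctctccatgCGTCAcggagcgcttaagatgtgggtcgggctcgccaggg
Jun: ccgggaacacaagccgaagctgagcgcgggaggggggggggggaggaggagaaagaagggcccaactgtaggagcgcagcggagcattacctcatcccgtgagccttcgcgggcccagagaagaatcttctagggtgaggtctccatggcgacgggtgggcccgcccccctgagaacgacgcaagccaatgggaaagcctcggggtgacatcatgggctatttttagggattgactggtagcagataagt

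The letters TGACG, read on both strands, stood at -129 and -66 from the start site of Fos, at -106 in Junb and at -233, -213, -69 and -40 in Nr4a1, and were not in the window of Jun. The table held 11 such windows for 7 of the 9 genes, since Egr2 had several start sites, whose windows partly overlap. TGACG was in 6 of the 7 genes, Jun being the exception, and in 8 of the 11 windows, of which 3 are overlapping Egr2 windows that share the same matches, whereas it was in 17.8% of all 32851 windows of the same length. A count of 4 or more, as in Nr4a1, was found in 0.137% of all windows. The AP-1 letters TGANTCA, which share the letters TGA with TGACG, were in 0 of 11 windows and in 6.75% of all windows. The window of Jun holds the similar letters TGACATCA, which neither pattern can match. The CArG box was in 4 of 11 windows, all of Egr2 and some overlapping, and in 1.47% of all windows. These are matches of letters in a short window, and binding was not measured. The windows printed above were chosen by how the genes moved between mice, and only Jun stands for a window gene without TGACG. Ier2 and Egr1, which moved closely with Junb as described below, had no window in the table. Whether TGACG is linked to which genes moved together was not tested.

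The 9 genes were present at very different levels. By the median over the 17 mice, Nr4a1 was the most abundant at 63.4 TPM, followed by Jun at 34.7, Junb at 25.3, Ier2 at 17.9, Fos at 9.02, Atf3 at 7.56, Egr1 at 7.02, Egr2 at 1.13 and Fosb at 0.560 TPM, which are levels per transcript length. Neighbours in this order were not equally well separated. Junb was above Ier2, and Egr1 above Egr2, in 17 of 17 mice, but Nr4a1 was above Jun in only 11 of 17, Jun above Junb in 12 of 17 and Atf3 above Egr1 in 10 of 17, so the ranges of all these neighbours overlapped. Fosb reached 1 TPM in 3 mice only. Its lowest value, 0.160 TPM, corresponded to about 24.7 reads and a counting error of 20.1%, and Egr2 at its lowest, 0.416 TPM, to about 36 reads and 16.7%. For the other 7 genes the lowest value rested on at least 150 reads, so counting alone allowed an error of at most 8.14%.

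**Figure D1:**
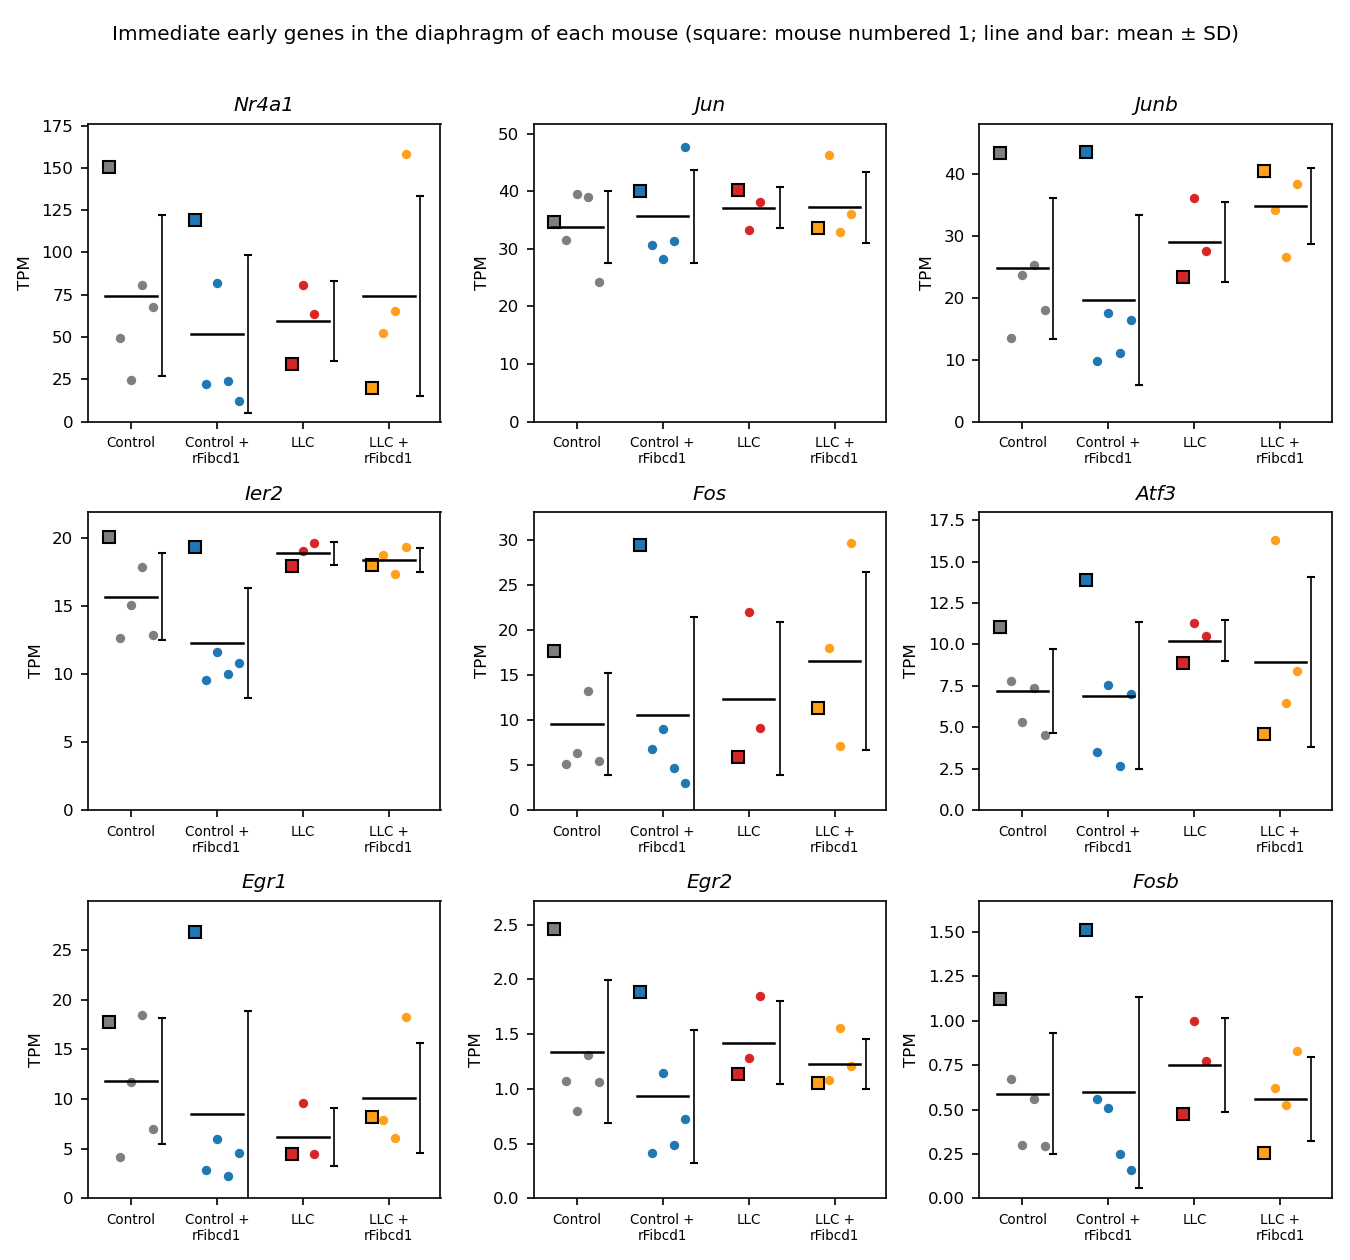
Expression of the 9 immediate early genes in TPM (linear axes from 0), a panel per gene in order of median level, with 1 point per mouse and the 4 groups along the horizontal axis. Lines are group means and bars mean ± SD, cut at 0 where the SD exceeds the mean, and the squares mark the mouse numbered 1 in each group, which was the highest Control + rFibcd1 mouse for 8 of 9 genes and the lowest LLC mouse for 8 of 9.

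Mice differed widely in most of these genes. From the lowest to the highest mouse, Nr4a1 spanned 12.9-fold, Egr1 12.1-fold, Fos 9.87-fold and Fosb 9.42-fold, Atf3 6.20-fold, Egr2 5.91-fold and Junb 4.43-fold. Ier2 spanned 2.10-fold and Jun 1.96-fold. Most of this span lay inside single groups, as within Control + rFibcd1 Egr1 spanned 12.1-fold, Fos 9.80-fold and Nr4a1 9.68-fold. The highest group mean was above the lowest by 1.10-fold for Jun and by 1.92-fold for Egr1, with the other 7 genes between. Group means cannot span more than single mice do, so setting these spans side by side is no test.

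In Control mice 1 to 5, Nr4a1 was at 150, 49.3, 24.6, 80.5 and 67.6 TPM, and in Control + rFibcd1 mice 1 to 5 at 119, 22.1, 82.0, 23.8 and 12.3 TPM. LLC mice 1 to 3 had 34.2, 81.0 and 63.4 TPM, and LLC + rFibcd1 mice 1 to 4 had 20.1, 52.5, 65.6 and 159 TPM. Every group thus held mice at low and at high Nr4a1, and the ranges of all groups overlapped.

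Fos, the classical partner of Jun in AP-1, was at 17.6, 5.08, 6.36, 13.2 and 5.40 TPM in the Control mice and at 29.5, 6.74, 9.02, 4.65 and 3.01 TPM in the Control + rFibcd1 mice. The LLC mice had 5.93, 22.0 and 9.10 TPM and the LLC + rFibcd1 mice 11.3, 18, 7.08 and 29.7 TPM. The highest Control + rFibcd1 and LLC + rFibcd1 mice, at 29.5 and 29.7 TPM, were at nearly the same level, and in Control + rFibcd1 and in LLC a single mouse stood far above the rest.

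Egr1, which lies at chr18:34859823-34864984, ranged from 4.17 to 18.4 TPM in Control, with a median of 11.7, and from 2.21 to 26.8 TPM in Control + rFibcd1, with a median of 4.57. The LLC mice had 4.46, 9.54 and 4.46 TPM, and the LLC + rFibcd1 mice 8.16, 7.84, 6.11 and 18.2 TPM. A single mouse stood above the others in the last 3 of these groups, whereas Control was spread evenly.

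Jun varied less between mice than these genes. It was at 34.7, 31.6, 39.6, 39.1 and 24.3 TPM in Control, and at 40.1, 30.7, 28.2, 31.4 and 47.6 TPM in Control + rFibcd1. The LLC mice had 40.2, 33.3 and 38.1 TPM and the LLC + rFibcd1 mice 33.6, 46.3, 32.9 and 36 TPM, and the 4 group means lay between 33.9 and 37.2 TPM.

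Measured as the SD of log2(TPM + 1) within groups, the spread was 1.10 for Nr4a1, 0.91 for Fos, 0.90 for Egr1, 0.61 for Atf3 and 0.58 for Junb, against a median of 0.149 over the 13305 genes. These 5 genes were at percentiles 97.7, 96.8, 96.8, 94.5 and 94.0 of all genes. Ier2 (SD 0.26) and Jun (SD 0.26) were at percentiles 79.1 and 78.4. Set against genes of like level they also ranked high, since 99.0% of the 500 genes nearest to Nr4a1 in mean level had a smaller SD, as did 98.8% of those nearest to Fos and 89.8% of those nearest to Jun. The exception was Fosb, with a smaller SD in 48.2% of the genes nearest to it, so its spread was in the middle of genes of its low level, where this scale compresses values under 1 TPM.

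**Figure D2:**
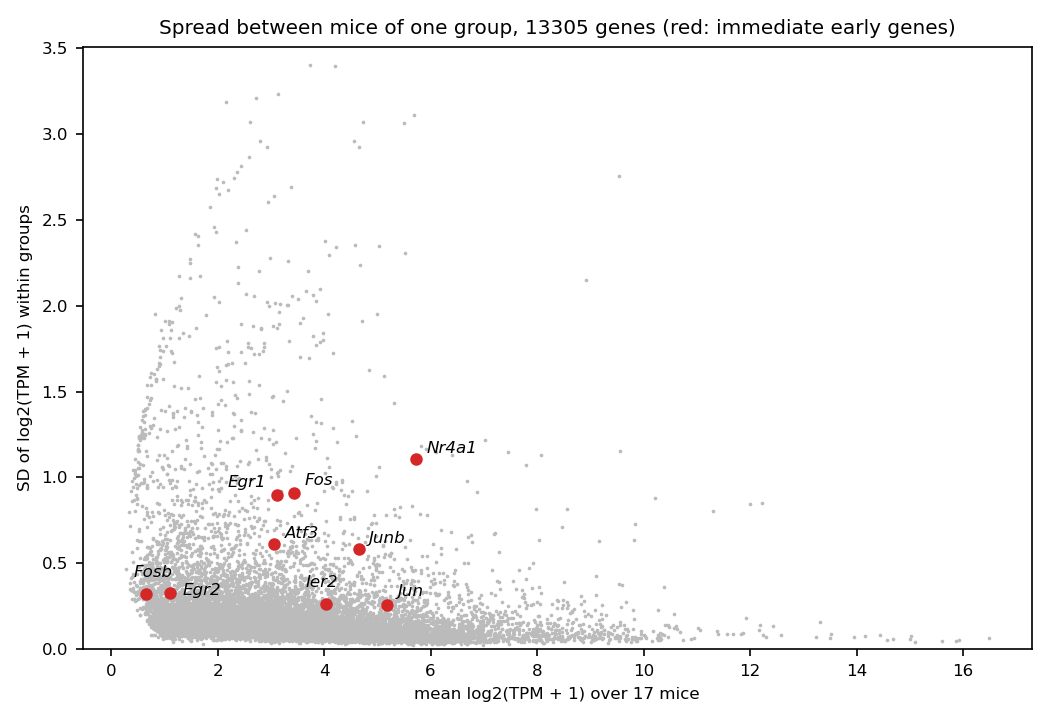
SD of log2(TPM + 1) within groups (vertical axis, log2 units) against the mean of log2(TPM + 1) over 17 mice (horizontal axis), with 1 grey point for each of 13305 genes and the 9 immediate early genes in red. Nr4a1, Fos, Egr1, Atf3 and Junb lie well above most genes of their level, while Jun and Ier2, both at an SD of 0.26, lie near the upper edge of the dense band.

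The tumor comparison set the 7 tumor-bearing mice against the 10 tumor-free mice, whatever their injections, in a linear model of log2(TPM + 1) over 4 groups (limma). Ier2 was the only one of the 9 genes that passed an adjusted p of 0.05, or 1 of 9, in a comparison where 44.8% of all genes passed (5963 of 13305, 38.8% higher and 5.98% lower). At an unadjusted p of 0.05, 2 of 9 passed (Ier2 and Junb), against 53.5% of all genes, so the share was below the background by either rule. The differences of the 9 genes had a median of 0.24 on the log2 scale, and the median over all genes was 0.13; 8 of the 9 were positive.

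Ier2 was at 20.1, 12.7, 15.1, 17.9 and 12.9 TPM in the Control mice and at 19.4, 9.59, 11.7, 10.04 and 10.8 TPM in the Control + rFibcd1 mice. It was at 18, 19.1 and 19.7 TPM in the LLC mice and at 18, 18.8, 17.4 and 19.4 TPM in the LLC + rFibcd1 mice. The tumor-bearing mice formed a narrow band, 18.6 ± 0.847 TPM (SD, n = 7), and the tumor-free mice a broad one, 14.0 ± 3.88 TPM (SD, n = 10). The bands overlapped, as 3 of 10 tumor-free mice (Control mice 1 and 4 and Control + rFibcd1 mouse 1) reached the lowest tumor-bearing value. Ier2 rose by 0.43 ± 0.12 (SE) on the log2(TPM + 1) scale, or 0.30 relative to the median gene (adjusted p = 0.0127), and a two-sided exact permutation test over 19448 splits of the mice gave p = 0.0116. It passed in 17 of 17 fits that left out a mouse (adjusted p from 8.20e-04 to 0.0326), but after quantile normalization the difference was 0.26 with an adjusted p of 0.0804.

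Markers of other cells also differed between the groups. Summed over 5 markers each, the neutrophil list ranged from 44.9 to 106 TPM in LLC and from 54.9 to 206 in LLC + rFibcd1, against 1.84 to 14.2 in Control and 2.87 to 78.2 in Control + rFibcd1. The B cell list was at 208 to 261 TPM in LLC against 2.39 to 91.2 in Control, the T cell list at 27.2 to 44.3 against 2.16 to 16.1 and the macrophage list at 182 to 223 against 76.2 to 133. LLC + rFibcd1 overlapped Control in these 3 lists, at 17.4 to 258, 3.22 to 41.0 and 96 to 211 TPM. Control + rFibcd1 was at 3.32 to 131, 1.41 to 18.1 and 50.3 to 204 TPM. The sum of 5 endothelial markers, among them Pecam1 and Cdh5, was highest in LLC + rFibcd1, at 179 to 205 TPM, above every Control (141 to 169) and Control + rFibcd1 mouse (136 to 164), whereas LLC (160 to 182) overlapped Control. The 4 smooth muscle markers, among them Acta2 and Myh11, summed to 139 to 484 TPM in LLC and 140 to 184 in LLC + rFibcd1, against 103 to 140 in Control and 91.2 to 138 in Control + rFibcd1. The 5 fibroblast markers were at 910 to 953 TPM in LLC, 533 to 1046 in LLC + rFibcd1, 593 to 854 in Control and 480 to 872 in Control + rFibcd1, so LLC alone lay above both tumor-free groups. The adipocyte list (188 to 954, 70.7 to 384, 55.6 to 361 and 70.7 to 434 TPM in the same order), the mesothelium list (83.9 to 150, 51.9 to 141, 49.8 to 129 and 18.1 to 113 TPM) and the red cell list (14168 to 46936, 14769 to 20952, 3848 to 20311 and 3918 to 20822 TPM) had higher medians in both tumor groups than in either tumor-free group, and their ranges overlapped. The sum of 8 skeletal muscle markers, among them the myosin heavy chains Myh1, Myh2, Myh4 and Myh7, was 40775 to 43255 TPM in LLC, 42173 to 49432 in LLC + rFibcd1, 46940 to 51199 in Control and 46156 to 52099 in Control + rFibcd1. Mitochondrially encoded genes took 42.9%, 45.2%, 47.1% and 47.8% of TPM in the same order. No marker of these lists was at 0 in all mice. Their part in the difference in Ier2 was not tested, and in bulk tissue fewer cells of a type and less RNA per cell cannot be told apart.

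Junb, an AP-1 subunit that often replaces Jun, came next. It was at 43.3, 13.5, 23.6, 25.3 and 18 TPM in Control, at 43.5, 9.81, 17.5, 11 and 16.4 TPM in Control + rFibcd1, at 23.3, 36.1 and 27.6 TPM in LLC and at 40.5, 34.2, 26.5 and 38.3 TPM in LLC + rFibcd1. Apart from the mouse numbered 1 in each tumor-free group, only Control mice 3 and 4 reached the lowest tumor-bearing value, so 4 of 10 tumor-free mice did. The difference of Junb was 0.66 ± 0.27 (SE), with an adjusted p of 0.0568 in limma and an unadjusted p of 0.0356 in the two-sided exact permutation test. Without Control mouse 1 it was 0.78 (adjusted p = 0.0232), and without Control + rFibcd1 mouse 1 it was also 0.78 (adjusted p = 0.00652), so a single high mouse decided on which side of the threshold Junb fell.

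The other 7 genes did not pass. Fos differed by 0.59 ± 0.42, Atf3 by 0.42 ± 0.28, Nr4a1 by 0.24 ± 0.51 and Egr2 by 0.16 ± 0.15, with adjusted p from 0.236 to 0.718. Jun differed by 0.11 ± 0.12, Fosb by 0.068 ± 0.15 and Egr1 by -0.023 ± 0.41, with adjusted p from 0.466 to 0.969. The 95% interval for Nr4a1 ran from -0.84 to 1.32 and that for Jun from -0.14 to 0.37, so the mice limited the change of Jun far more closely than that of Nr4a1. In 0 of 9 genes were the tumor-bearing and tumor-free mice fully apart, as in 2.26% of all genes.

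The direct comparison of LLC with Control asks the same question in mice without rFibcd1 and shares those samples with the tumor comparison. It called 0 of 9 genes, whereas 35.8% of all genes were called, and 0 of 9 passed at an unadjusted p of 0.05 (48.3% of all genes). Ier2 differed by 0.27 ± 0.18 (adjusted p = 0.243), Atf3 by 0.50 ± 0.42 (adjusted p = 0.356) and Egr1 by -0.74 ± 0.61 (adjusted p = 0.347). The groups were fully apart in 0 of 9 genes and in 40.2% of all genes. Dunn's test, the rank test of the kind used in the study, called 0 of 9 and also 0 of all 13305 genes at an adjusted p under 0.05. Its count therefore says nothing about these genes in particular. The study used another rule, a p under 0.05 with a minimum fold change, and names no adjustment over genes.

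**Figure D3:**
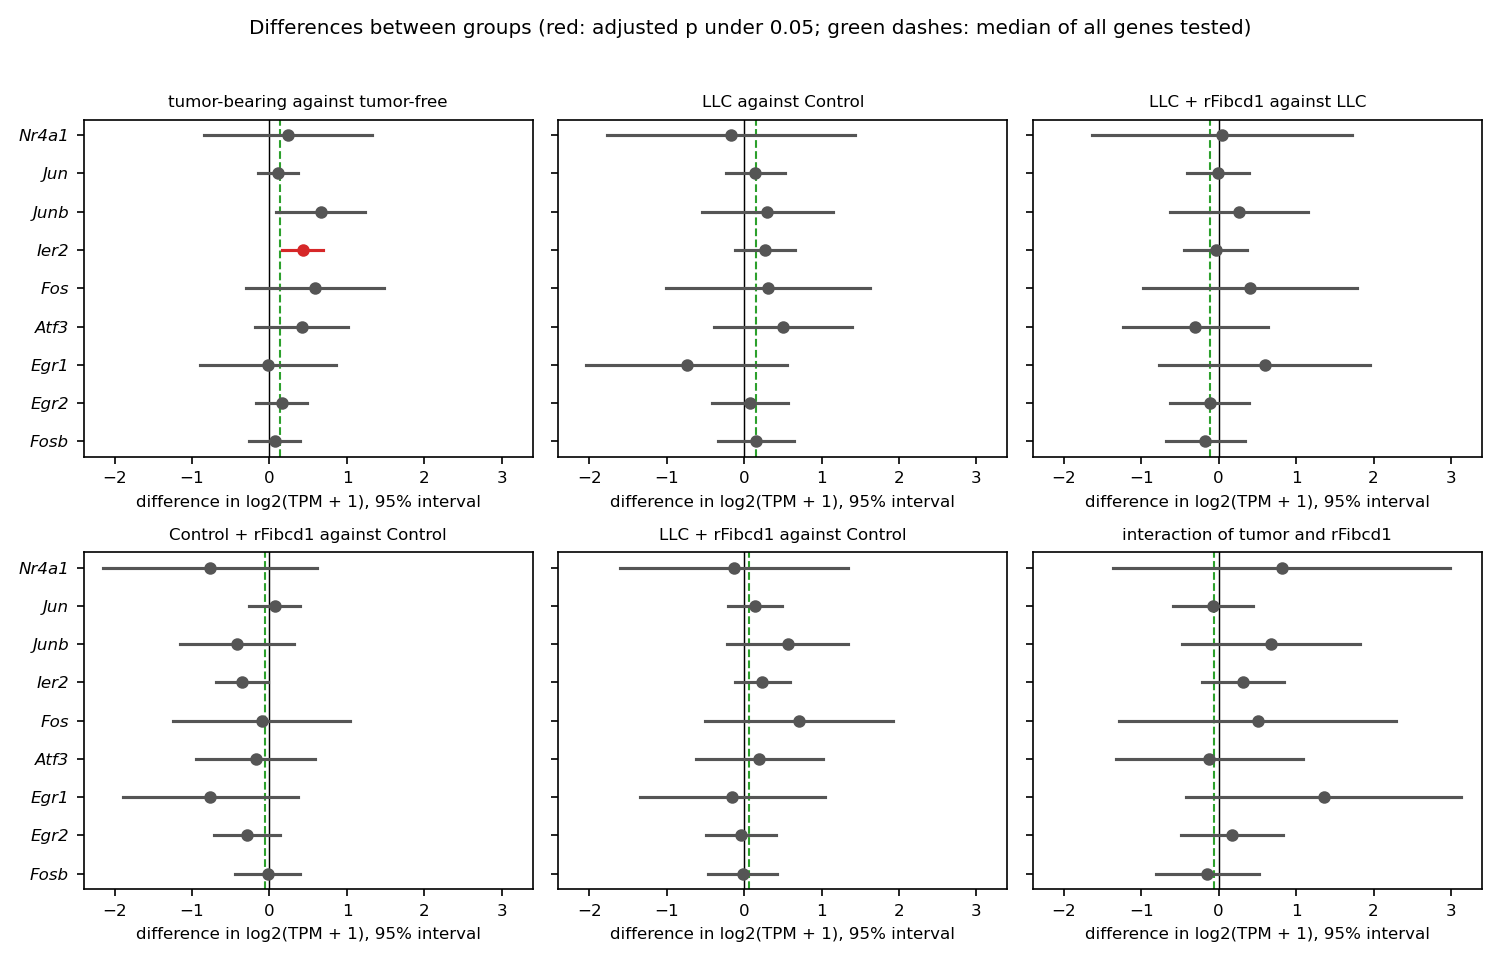
Differences in log2(TPM + 1) with 95% intervals (horizontal axis) for the 9 immediate early genes (vertical axis) in the 6 comparisons, with the median difference of all 13305 genes as a green dashed line. Ier2 in the tumor comparison, in red, is the only gene with an adjusted p under 0.05, and the intervals of Nr4a1, Fos and Egr1 are the widest in each panel.

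rFibcd1 was then compared within tumor-bearing mice. LLC + rFibcd1 against LLC called 0 of 9 genes, with 0.113% of all genes called, and 0 of 9 at an unadjusted p of 0.05 (22.7% of all genes). Egr1 was at 10.1 ± 5.5 TPM (SD, n = 4) against 6.15 ± 2.93 TPM (SD, n = 3), a difference of 0.59 ± 0.64 (SE), and Fos differed by 0.40 ± 0.65. Atf3 differed by -0.30 ± 0.44 and Ier2 by -0.038 ± 0.19, and adjusted p ran from 0.540 to 0.979 over the 9 genes. The intervals were wide, with half-widths from 0.40 for Jun to 1.67 for Nr4a1, and for Nr4a1 changes from -1.63 to 1.72 were within the interval. The groups were fully apart in 0 of 9 genes and in 14.6% of all genes.

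In tumor-free mice, Control + rFibcd1 against Control also called 0 of 9 genes, as it called 0% of all genes. On the log2(TPM + 1) scale 8 of 9 differences were negative, Jun being the exception, although the mean TPM of Fos was higher with rFibcd1 (10.6 against 9.54) and that of Fosb nearly equal (0.597 against 0.590), and the median difference was -0.29 against -0.060 for all genes. Ier2 was at 12.3 ± 4.02 TPM (SD, n = 5) against 15.7 ± 3.23 TPM (SD, n = 5) and was the 1 of 9 genes with an unadjusted p under 0.05, as in 4.39% of all genes. The groups were fully apart in 0 of 9 (0.812% of all genes). Its difference was -0.35 ± 0.16 (SE), with an unadjusted p of 0.0397 and an adjusted p of 0.927 from limma. Since most pairs of these genes moved together between mice, as described next, 8 negative differences are not 8 separate observations, and Control + rFibcd1 mouse 1 was the highest of its group for all of the 8.

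LLC + rFibcd1 against Control called 0 of 9 genes against 3.08% of all genes, with adjusted p from 0.403 to 0.973 and 0 of 9 genes at an unadjusted p of 0.05 (19.9% of all genes); the groups were fully apart in 0 of 9 (8.88% of all genes). Fos had the largest difference at 0.71 ± 0.57 and Junb the next at 0.56 ± 0.37. The interaction, which tests whether the difference made by rFibcd1 depends on the tumor, called 0 of 9 genes and 0% of all genes, and 0 of 9 at an unadjusted p of 0.05 (8.58% of all genes). Egr1 had the largest interaction, 1.35 ± 0.83 (adjusted p = 0.662), with a 95% interval from -0.42 to 3.12, followed by Nr4a1 at 0.81 ± 1.02 and Junb at 0.68 ± 0.54.

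Deviations from the group mean were then compared between genes, to see whether the large differences between mice were shared. By Pearson's r each of the 9 genes but Jun had pairs that passed, and by Spearman's rho neither Jun nor Atf3 had any. Of 36 pairs of genes, 26 had a Pearson correlation with an adjusted p under 0.05 (permutation within groups, 100000 resamples, two-sided, Benjamini-Hochberg over the 36 pairs), and 12 had by Spearman's rho. All 26 were among the 28 pairs without Jun, whose median r was 0.73 (range 0.56 to 0.94, n = 17 mice). The 8 pairs with Jun had r from -0.19 to 0.51 with a median of 0.22, and 0 of 8 passed.

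The closest pairs joined Junb, Ier2 and Egr1. Junb and Ier2 had r = 0.94 and rho = 0.86 (permutation p = 4.00e-05 and 1.20e-04, adjusted p = 0.00144 for each), and r = 0.79 without the 2 mice farthest from the median. Junb and Egr1 had r = 0.92 and rho = 0.94 (permutation p = 9.00e-05 and 4.00e-05, adjusted p = 0.00156 and 9.00e-04), and r = 0.85 without 2 mice. Egr1 and Ier2 had r = 0.91 and rho = 0.87 (permutation p = 1.30e-04 and 5.00e-05, adjusted p = 0.00156 and 9.00e-04), and r = 0.84 without 2 mice. These 3 genes therefore stayed close when the extreme mice were left out.

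Other pairs rested on those mice. Fosb and Junb had r = 0.66 and rho = 0.42 (permutation p = 0.0355 and 0.13, adjusted p = 0.0491 and 0.157), and r = -0.048 without 2 mice. Fosb and Ier2 had r = 0.76 and rho = 0.58 (permutation p = 0.0158 and 0.0322, adjusted p = 0.0285 and 0.0679), and r = 0.18 without 2 mice. Over the 28 pairs without Jun, the median r fell from 0.73 to 0.44 when each pair was taken without its 2 farthest mice. Jun and Nr4a1, at the other end, had r = -0.19 and rho = -0.16 (permutation p = 0.528 and 0.597, adjusted p = 0.576 and 0.652), and r = 0.070 without 2 mice.

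**Figure D4:**
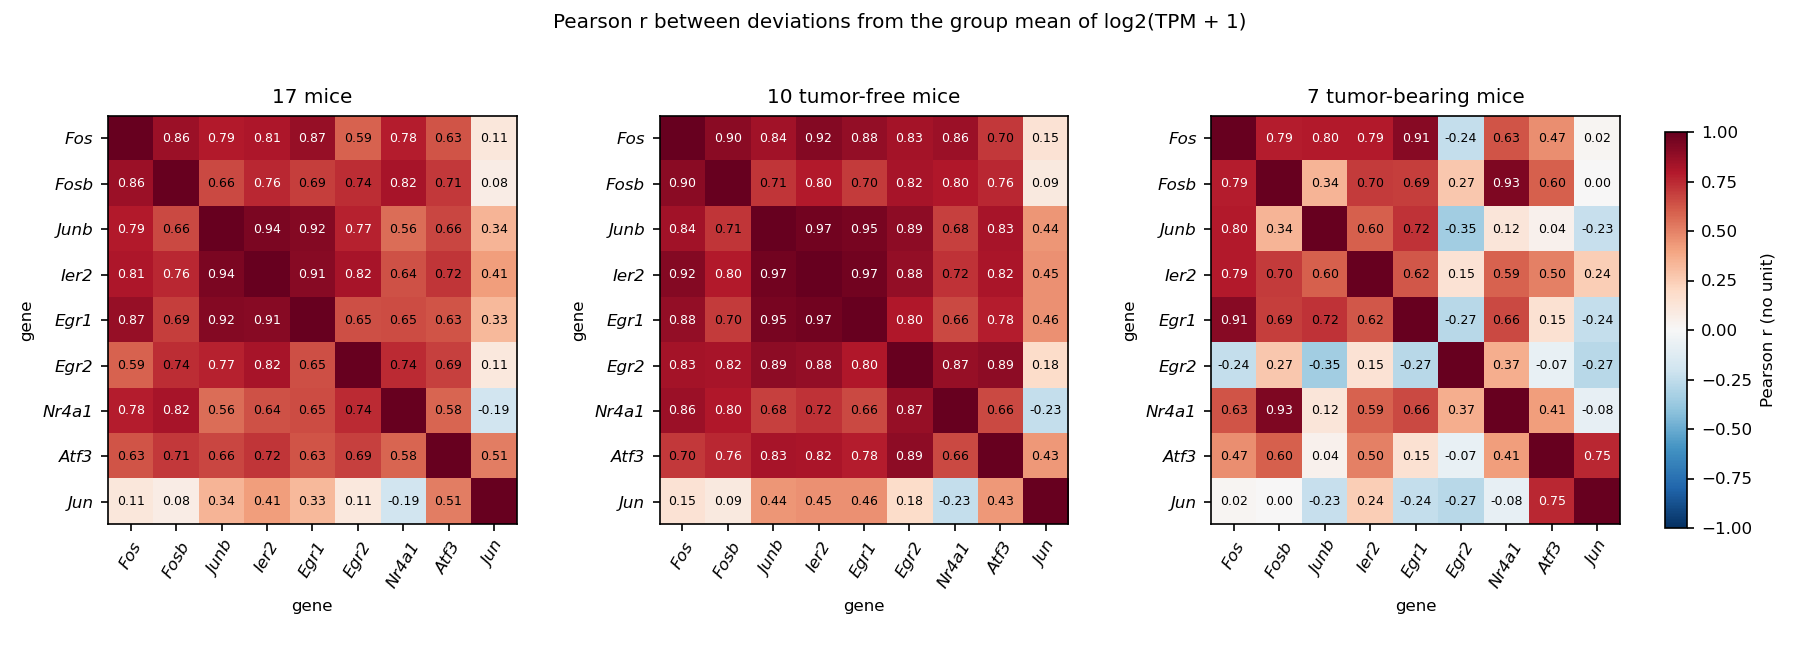
Pearson r between the deviations of log2(TPM + 1) from the group mean for each pair of the 9 genes (rows and columns), over 17 mice and separately over the 10 tumor-free and 7 tumor-bearing mice, on a color scale from -1 to 1. The 8 genes other than Jun form a positive block with a median of 0.82 in tumor-free mice, while in tumor-bearing mice the median is 0.55 and Egr2 falls out of the block.

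The shared deviation was largest in the mice numbered 1 of the tumor-free groups. Control mouse 1 was the highest of its group for 7 of 9 genes (Fos, Fosb, Junb, Egr2, Ier2, Atf3 and Nr4a1), and Control + rFibcd1 mouse 1 for the same 7 and Egr1. LLC mouse 1, in contrast, was the lowest of its group for 8 of 9 genes, and LLC mouse 2 the highest for 6. Leaving out Control mouse 1 reduced the 26 pairs to 12, and leaving out Control + rFibcd1 mouse 1 reduced them to 11. Without both, an alternative added after the values were seen, 4 pairs passed and the median r of the 28 pairs without Jun was 0.42.

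Within the 10 tumor-free mice the 28 pairs without Jun had a median r of 0.82, from 0.66 to 0.97. Within the 7 tumor-bearing mice the median was 0.55, from -0.35 for Junb and Egr2 to 0.93 for Fosb and Nr4a1. Fos and Egr1 were close in both, at 0.88 and 0.91, and Jun and Atf3 were closer in tumor-bearing mice, at 0.75 against 0.43. The difference between tumor-free and tumor-bearing mice in these correlations was not tested, and the second set rests on 7 mice.

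In number of reads the mice numbered 1 did not stand apart in the same direction, whereas in some other measures they did. Control mouse 1 had about 53000000 reads, the second highest of its group (range 50700000 to 53100000), and Control + rFibcd1 mouse 1 about 51100000, the lowest of its group (up to 53700000). Both were low in the share of TPM from mitochondrially encoded genes, at 46.0% (the second lowest of its group) and 45.4% (the lowest), and high in the number of genes at 1 TPM or more, at 12399 (the second highest) and 12576 (the highest). Their endothelial sums were low, at 141 TPM (the lowest) and 146 TPM (the second lowest). Both had the highest sum of the 4 adipocyte markers (Adipoq, Plin1, Cidec and Lep) in their group, 361 TPM in a range from 55.6 to 361 and 434 TPM in a range from 70.7 to 434. Control + rFibcd1 mouse 1 was also the highest of its group in the macrophage (204 TPM), B cell (131 TPM), T cell (18.1 TPM) and mesothelium (113 TPM) lists, whereas Control mouse 1 was the second highest in the first 3 of these and the lowest in mesothelium (49.8 TPM). In the neutrophil list Control mouse 1 was the highest of its group (14.2 TPM) and Control + rFibcd1 mouse 1 the second highest (25.2 TPM), and the red cell list gave the same ranks (20311 and 16033 TPM). Both were the second highest in smooth muscle (136 and 127 TPM). In the fibroblast list they went opposite ways, with Control mouse 1 the lowest of its group (593 TPM) and Control + rFibcd1 mouse 1 the second highest (768 TPM). In skeletal muscle neither was at an end of its group, at ranks 3 and 4 of 5 from the highest (48835 and 47245 TPM). The part of these measures in the shared deviation was not tested.

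**Figure D5:**
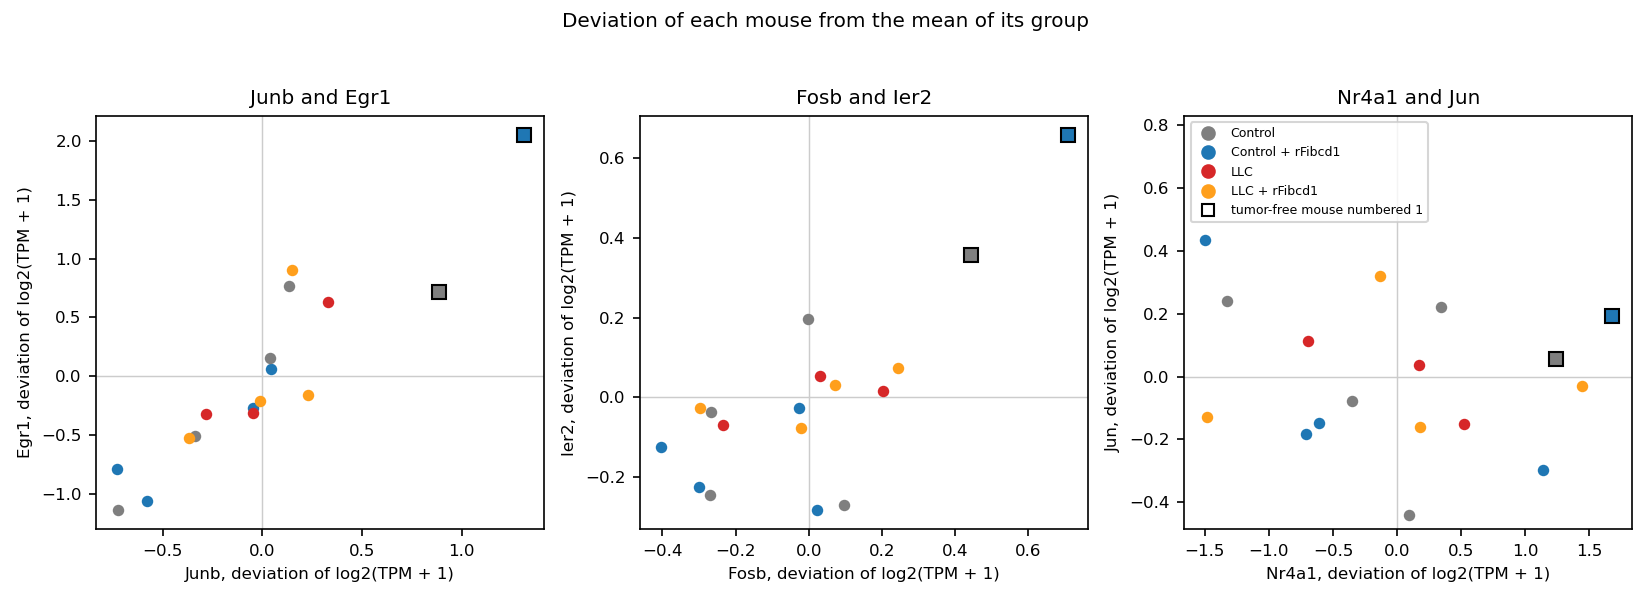
Deviation of each mouse from its group mean in log2(TPM + 1) for Junb and Egr1, Fosb and Ier2, and Nr4a1 and Jun (each axis 1 gene, log2 units), with 1 point per mouse colored by group and squares for the mice numbered 1 of the tumor-free groups. Junb and Egr1 (r = 0.92) line up over all mice, Fosb and Ier2 (r = 0.76, or 0.18 without 2 mice) mainly through the squares, and Nr4a1 and Jun (r = -0.19) show no line.

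Among the 13220 other genes that were tested, outside the lists named in the next paragraph, the 10 most like the immediate early genes were taken by the mean of their r with the 9 genes over 17 mice. They were Mxd1 (mean r 0.75), a partner of Max that opposes Myc, Apold1 (0.72), an early response gene of endothelium, Otud1 (0.71), a deubiquitinase, and Bcl2l11 (0.70), which encodes the pro-apoptotic protein Bim. The chemokine Cxcl1 (0.70), the ubiquitin ligase Rnf19b (0.69), the prostaglandin receptor Ptger4 (0.69), the endothelin receptor Ednrb (0.69), the nuclear receptor coactivator Pnrc1 (0.69) and the ubiquitin-like protein Isg15 (0.68) followed. Apold1 ranged from 2.30 to 14.0 TPM over the mice and followed Fos at r = 0.92, and Cxcl1 ranged from 0.489 to 5.56 TPM and followed Fos also at 0.92. The median of the mean r over these 13220 genes was 0.15. With each of these 10 genes Jun had a lower r than any other of the 9 genes, from 0.068 with Pnrc1 to 0.46 with Ptger4. The mean r used to choose the 10 was mostly set by the genes other than Jun, which moved together. The place of Jun therefore adds little to its low r with those genes, and the high r values are raised by the choice.

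Lists of related genes gave the setting of the 9. The other AP-1 subunits had 7 tested members of 8, with a median of the mean r of 0.48 and Fosl2, a Fos relative, highest at 0.78. The other EGR and NR4A genes had 3 of 4, with Nr4a2 at 0.69 and Egr3 at 0.55. The other primary response genes had 31 of the 32 found in the expression table, with a median of 0.35 and Gem (0.70) and Csrnp1 (0.69) on top. The feedback phosphatases and inhibitors had all 12, with a median of 0.28 and Spry4, an inhibitor of growth factor signalling, highest at 0.68. The upstream kinases and factors had all 23 found in the expression table, with a median of 0.20, near that of all other genes, and Creb1 on top at 0.43. These values are descriptions over the same 17 mice.

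In the tumor comparison, 29 of the 76 tested genes of these lists passed, 27 higher and 2 lower, or 38.2%, against the 44.8% of all genes given above. The split depended on the scaling, as it did over all genes, of which 38.8% were higher and 5.98% lower as deposited. After median-ratio scaling 17 were higher and 9 lower, beside 21.1% and 15.3% of all genes. Without mitochondrially encoded genes the counts were 19 and 4, beside 25.1% and 11.3%, and after quantile normalization 12 and 12, beside 13.7% and 25%. Of the other AP-1 subunits, 3 of 7 rose, namely Batf3 (0.69 ± 0.14, adjusted p = 0.00305), Batf (0.85 ± 0.24, adjusted p = 0.0109) and Jund (0.44 ± 0.13, adjusted p = 0.0161), and the same count rose under each of the 3 other scalings. Batf and Batf3 are known from lymphocytes and dendritic cells. The sums of immune markers in LLC given above were higher too, and their part in the difference in Batf and Batf3 was not tested. Jund, a relative of Jun, was at 37.7 ± 9.31 TPM in Control (n = 5), 37.5 ± 7.90 in Control + rFibcd1 (n = 5), 53.0 ± 9.56 in LLC (n = 3) and 49.2 ± 7.03 in LLC + rFibcd1 (n = 4, all SD).

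The other EGR and NR4A genes gave 0 of 3. They too were widely spread, with Nr4a3 at 5.31 ± 3.85 TPM in Control and 2.41 ± 2.64 in Control + rFibcd1 (SD, n = 5 each), and Nr4a2 at 2.91 ± 3.90 and 2.34 ± 2.47 TPM. Of the other primary response genes, 13 of 31 rose and 2 fell, beside 38.8% and 5.98% of all genes. After median-ratio scaling 9 rose and 3 fell, without mitochondrially encoded genes 9 and 2, and after quantile normalization 5 and 3. Btg1, an inhibitor of proliferation, rose by 0.93 ± 0.20 (adjusted p = 0.00346), Zfp36l1, which destabilises mRNAs with AU-rich elements, by 0.41 ± 0.091 (adjusted p = 0.00437) and the kinase Pim1 by 0.79 ± 0.20 (adjusted p = 0.00734).

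Of the feedback phosphatases and inhibitors, 3 of 12 rose, beside 38.8% of all genes, and 3 of 12 did without mitochondrially encoded genes, beside 25.1%. Those called as deposited were the MAP kinase phosphatases Dusp2 (0.76 ± 0.18, adjusted p = 0.00555) and Dusp6 (0.29 ± 0.079, adjusted p = 0.0106), and Spred3 (0.25 ± 0.064, adjusted p = 0.00825). After quantile normalization neither Spred3 (0.012, adjusted p = 0.920) nor Dusp6 (0.12, adjusted p = 0.161) passed, and after median-ratio scaling Dusp6 did not (0.16, adjusted p = 0.0659). The list then counted 1 higher and 2 lower, and 2 higher and 2 lower, respectively. Of the upstream kinases and factors, 8 of 23 rose as deposited, 3 rose and 4 fell after median-ratio scaling, 3 rose and 7 fell after quantile normalization, and 4 rose and 2 fell without mitochondrially encoded genes. The shares of all genes that rose and fell under each scaling are those given above for the lists together. Mapk3, which encodes the kinase ERK1, rose by 0.49 ± 0.084 (adjusted p = 0.00133), and its mean level was 33.7 ± 2.33 TPM in Control (n = 5), 32.6 ± 3.86 in Control + rFibcd1 (n = 5), 55.0 ± 11.5 in LLC (n = 3) and 42.0 ± 5.12 in LLC + rFibcd1 (n = 4, all SD). In LLC + rFibcd1 against Control alone Mapk3 did not pass (0.31, adjusted p = 0.155). Elk3, a partner of SRF, rose by 0.42 ± 0.089 (adjusted p = 0.00324) and the S6 kinase Rps6ka1 by 0.58 ± 0.14 (adjusted p = 0.00607), and these 3 passed under every scaling run.

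LLC against Control called 13 of the 76 genes higher and 1 lower, or 18.4%, beside 35.8% of all genes. Jund (0.50, adjusted p = 0.0593) and Pim1 (0.78, adjusted p = 0.0508), called in the tumor comparison, did not pass there. The comparison of rFibcd1 with carrier in LLC mice, the same in Control mice and the interaction called 0 of 76 genes each, beside 0.113%, 0% and 0% of all genes. In LLC + rFibcd1 against Control, which also holds the tumor, 1 of 76 passed, beside 3.08% of all genes, namely Srf, at 37.5 ± 1.79 TPM (SD, n = 4) against 33.0 ± 1.55 TPM (SD, n = 5), a difference of 0.18 ± 0.046 (SE, adjusted p = 0.0471). Under the 3 other scalings it was 0.11 to 0.13 and did not pass (adjusted p from 0.187 to 0.307).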

How the data were processed

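RNA from the diaphragm of 17 mice was sequenced, and the authors aligned the reads with CLC Genomics Workbench to mm10 and deposited TPM values per gene symbol. The labels and the methods name different library kits, and whether counting used strand is not stated, so antisense reads cannot be told apart. The 9 genes, the wider gene lists and the tests were chosen with earlier results of these data known. Steps of low TPM values gave about 50700000 to 54600000 reads per sample; 82.6% to 85.3% of low values lay within 0.05 of a whole read (10% at random), too few for a count test, so depths and read numbers are estimates and cover counting error only.

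Values were analysed as log2(TPM + 1), which understates changes of low genes, for genes that reached 1 TPM in 3 or more samples. limma 3.58.1 (R 4.3.3) fitted the 4 groups with an expression trend, and p-values were Benjamini-Hochberg adjusted over 13305 genes and called under 0.05. The fits were tested on simulated data. Correlations used deviations from group means (scipy 1.17.1, numpy 2.4.6). Named genes were the 9, the 3 with the smallest p in the tumor comparison per list, any list gene called in a comparison with rFibcd1, the 10 most similar genes, and the leading ones per list by similarity. Promoter windows came from RefSeq, gene positions from GENCODE M21. Alternatives were other pseudocounts, filters, scalings, trend, groups, block, rank test and each mouse left out. Samples are separate mice per the labels. Figures used matplotlib 3.10.9.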

Additional observations from a re-analysis of the deposited data

Results flagged for a closer look

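Among 27 sets of values (9 genes in the 3 groups of 4 or 5 mice), 5 held a mouse whose gap to its nearest neighbour took an unusually large part of the group's range. The gaps were taken on TPM, where high values stand farther apart than on the log2(TPM + 1) scale used elsewhere. Chance flags about 1 set in 20 only if values are normally distributed, which was not checked, and the 9 genes are not independent. The flags are therefore descriptions. Of the 5, 4 concerned Control + rFibcd1 mouse 1, with Fos at 29.5 TPM (next mouse 9.02), Junb at 43.5 TPM (next 17.5), Egr1 at 26.8 TPM (next 6.01) and Ier2 at 19.4 TPM (next 11.7). The remaining set was Egr1 in LLC + rFibcd1 mouse 4, at 18.2 TPM (next 8.16). No test of a difference between tumor-bearing and tumor-free mice in the effect of rFibcd1 passed for the 9 genes (limma, 0 of 9 at an unadjusted p of 0.05).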

How the results depend on the processing

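Ier2 in the tumor comparison kept its direction in 26 of 26 alternatives (0.26 to 0.49) and its call in 25, the exception being quantile normalization, under which 0 of the 9 genes were called (adjusted p = 0.0804). With a mouse left out, 1 to 2 genes were called, the second being Junb, and the unadjusted exact permutation test passed 2. Every other comparison called 0 of 9 under all alternatives run. Of 1470 differences of single genes under an alternative, 71 changed sign, 0 of them with an adjusted p under 0.05 (lowest 0.177). The number of gene pairs that passed was 23 with log2(TPM + 0.1), 11 to 27 with a mouse left out and 4 without the mice numbered 1 of the tumor-free groups.

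The median difference of all genes in the tumor comparison was 0.13 as deposited, 0.023 with median-ratio scaling, 0.066 without mitochondrially encoded genes and -0.057 with quantile normalization, which moved the calls from 5167 higher of 5963 to 1819 of 5144. Signs that changed with scaling are as follows. With median-ratio scaling, Jun was -0.017 in the tumor comparison, -0.0040 in LLC against Control and 0.093 in LLC + rFibcd1 against LLC, Egr2 -0.013 in LLC against Control and Ier2 0.061 in LLC + rFibcd1 against LLC. Without mitochondrially encoded genes, Jun was 0.049 and Ier2 0.017 in LLC + rFibcd1 against LLC. With quantile normalization, Fosb, Jun and Egr2 were -0.22, -0.020 and -0.087 in the tumor comparison, -0.23, -0.023 and -0.24 in LLC against Control and 0.095, 0.094 and 0.097 in LLC + rFibcd1 against LLC, where Ier2 was 0.093. Fosb was 0.086 in Control + rFibcd1 against Control and 0.0090 in the interaction, and Atf3 0.0076 in the interaction. With a pseudocount of 0.1, Egr1 was 0.0077 in the tumor comparison.

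With a mouse left out, signs changed within these ranges. In the tumor comparison, Egr1 ran from -0.22 to 0.16 and Nr4a1 from -0.0034 to 0.48. In LLC against Control, Fos ran from -0.18 to 0.69, Egr2 from -0.047 to 0.23 and Nr4a1 from -0.50 to 0.18. In LLC + rFibcd1 against LLC, Jun ran from -0.11 to 0.048, Egr2 from -0.20 to 0.0080 and Nr4a1 from -0.43 to 0.54. In Control + rFibcd1 against Control, Fos ran from -0.55 to 0.18, Fosb from -0.20 to 0.086, Jun from -0.045 to 0.14 and Atf3 from -0.45 to 0.056. In LLC + rFibcd1 against Control, Fosb ran from -0.099 to 0.094, Egr1 from -0.45 to 0.043, Egr2 from -0.12 to 0.11, Atf3 from -0.11 to 0.43 and Nr4a1 from -0.60 to 0.37. In the interaction, Fosb ran from -0.26 to 0.032, Jun from -0.18 to 0.037 and Atf3 from -0.43 to 0.15. The cause of these changes was not tested.

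Replicate numbers are shared between groups. Over all genes, 4 of 22 same-numbered pairs of mice had r over 0.1 (range -0.46 to 0.49). Among the 4 were Control mouse 1 and Control + rFibcd1 mouse 1, at 0.48. Whether mice of the same number shared a batch was not tested. With the replicate number as a block, Fosb was -0.027 in the tumor comparison and Nr4a1 -0.046 in LLC + rFibcd1 against LLC, the calls among the 9 genes were the same, and over all genes the tumor comparison called 3782 and LLC against Control 5.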

Other observations

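Some genes of the wider lists went the other way from the 9 immediate early genes between mice of a group. They were chosen after their values were seen. Ddit3, the stress-induced factor CHOP, had a mean r of -0.58 with the 9 genes over 17 mice, at -0.79 with Fos, -0.75 with Junb and -0.72 with Ier2, and Arc had a mean r of -0.45, at -0.73 with Nr4a1. Spry2 and Plk2 followed Jun (r = 0.75 and 0.70) and opposed Nr4a1 (r = -0.62 and -0.63). These correlations are descriptions over 17 mice that share the libraries of the genes they are set against.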
